A study of Solanum lycopersicum with 18 samples.

Results

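PR1b1, CHI3, DEFL1 and Xegip are 4 tomato genes for secreted or defence-related proteins, taken by symbol from a table of 23808 genes. They were chosen with the measured values of these libraries already known, so their levels and differences are given as a description, without a test. Leaf RNA of 2 tomato materials was sequenced before NaCl was given (0 h) and 2 h and 8 h into the treatment, with 3 libraries in each of 6 groups and 18 in all. Micro-TOM is a small, fast-growing tomato much used in research. How Micro-TOM-EX, the other material, differs from it is not given in the sources used here, and neither are the NaCl dose and the genome build. All plants grew in soil in a greenhouse with 16 h of light, and the 0 h libraries of a material served as its control. Treated and untreated leaves of the same later hour could not be compared, so salt and the time of day cannot be told apart in any comparison between hours. Nothing in the labels says whether each library came from its own plants, so p-values measure only the spread between these samples, which may be technical.

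Plants answer microbes with families of pathogenesis-related (PR) proteins, many of which are secreted into the space around leaf cells. PR-1 proteins are small secreted proteins whose transcripts are widely used as a marker of salicylate signalling, chitinases cut the chitin of fungal cell walls, and defensins are small cysteine-rich peptides that act on microbial membranes. Xyloglucan-specific endoglucanase inhibitor proteins bind fungal enzymes that would cut the xyloglucan of the plant cell wall. Several PR proteins are also known to accumulate in plants under salt or drought.

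PR1b1 (gene ID 544123, pathogenesis-related leaf protein 6) is the PR-1 protein of the set. In the deposited table it lies on an unplaced scaffold, at positions 1578 to 2384 on the minus strand, and the reference assembly SLM_r2.1 puts it on chromosome 9. CHI3 (544149, acidic 26 kDa endochitinase) lies on chromosome 2 at 46550986 to 46552075 on the plus strand. DEFL1 (101263826, a defensin-like protein) lies on chromosome 7 at 2394475 to 2395559 on the minus strand, and Xegip (543853) on chromosome 1 at 79139212 to 79140674 on the minus strand. Each is given with 1 transcript, of 807, 956, 582 and 1463 bases in that order. The authors' annotation puts PR1b1 and CHI3 in the extracellular region and gives PR1b1, CHI3 and DEFL1 the term defense response. It gives Xegip neither term and lists it as an aspartyl protease family protein.

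Levels are in FPKM (fragments counted per kilobase of a transcript and per mapped amount of library), so that genes of unequal length can be set side by side. Library depth, estimated from the steps between low values, was 18.51 to 19.97 M fragments. The lowest library of a gene then rested on about 117 fragments for PR1b1, 104 for CHI3, 115 for DEFL1 and 18 for Xegip. Leaf mesophyll markers were present, with 5 of 13 matched by symbol and a summed level of 549.3 to 6599 FPKM, none of them at 0 throughout. Flower and anther markers summed to 0.1 to 3.76 FPKM with 3 of 10 matched, and none of 5 root markers was matched. AT2, the 1 glandular trichome marker matched of 8, was at 3.2 to 4.78 FPKM in Micro-TOM at 2 h and at 0.44 or below elsewhere. The mesophyll sum in Micro-TOM was 2960 to 5886 FPKM at 0 h, 1246 to 2550 at 2 h and 549.3 to 2394 at 8 h. In Micro-TOM-EX it was 4569 to 6599, 1727 to 5022 and 698.7 to 2692 FPKM. Of 8 fruit markers 3 were matched (ACS2, ACS4 and PSY1), and their sum went from 248.6 to 253.7 FPKM at 0 h to 60.25 to 98.61 at 2 h and 14.4 to 20.5 at 8 h in Micro-TOM. In Micro-TOM-EX it went from 228.5 to 301.3 FPKM to 51.5 to 75.98 and 9.78 to 15.29. These shifts run beside every comparison between hours below, and their part in them was not tested. In whole leaves, more cells that carry a transcript and more transcript per cell cannot be told apart.

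The second Micro-TOM-EX library of 0 h stood apart from the other two of its group. Its CHI3 level was 668.01 FPKM beside 24.26 and 22.68, or 28.5 times their mean, and its Xegip level was 42.81 FPKM beside 0.96 and 1.34, or 37.2 times. Its DEFL1 level was 190.19 FPKM beside 21.33 and 53.53, or 5.08 times their mean. PR1b1 was 111.88 FPKM there beside 75.1 and 71.41, or 1.53 times. Of 18402 genes tested, 32 (0.174%) were at least 8-fold higher in that library than the mean of the other two on the log2(FPKM + 1) scale, and 0 were 8-fold lower. CHI3 ranked 10th, Xegip 12th, DEFL1 66th and PR1b1 2351st among all genes by this difference. LE25, TAS14 and ca3, named below for their likeness to CHI3 or Xegip, stood high in the same library, with ca3, a carbonic anhydrase, at 114.81 FPKM beside 0.16 and 0.16. The cause was not tested. The second Micro-TOM library of 0 h also had the highest CHI3, DEFL1 and Xegip of its group, at 1.68, 2.45 and 2.51 times the mean of the other two. Results that rest on 0 h are therefore given with and without these libraries.

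**Figure D1:**
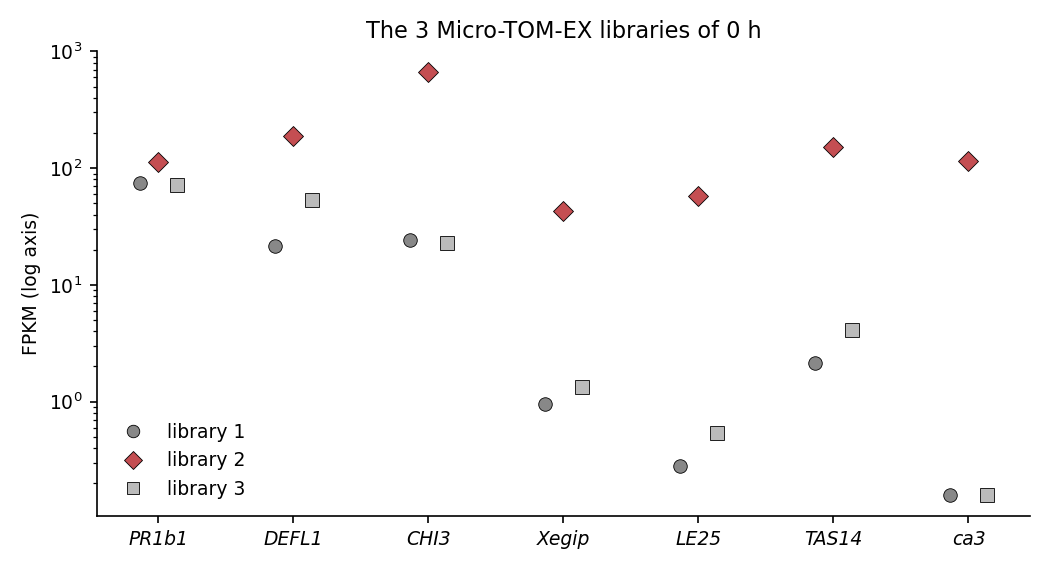
Level in FPKM (log axis) of PR1b1, DEFL1, CHI3, Xegip and 3 genes of like pattern in the 3 Micro-TOM-EX libraries of 0 h; each symbol is 1 library. Library 2 (diamond) holds the highest value of each of the 7 genes, by 28.5 times the mean of the other two for CHI3 and 1.53 times for PR1b1.

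PR1b1 was highest in Micro-TOM-EX at 8 h. Its 3 Micro-TOM libraries held 13.43, 26.82 and 34.97 FPKM at 0 h, 9.49, 23.76 and 13.61 at 2 h, and 105.18, 45.96 and 50.38 at 8 h. The 8 h values lay above both earlier hours, which overlapped each other. The Micro-TOM-EX libraries held 75.1, 111.88 and 71.41 FPKM at 0 h, 10.81, 33.31 and 94.29 at 2 h, and 609.72, 338.13 and 795.59 at 8 h. The lowest of these 8 h libraries stood above every other library of the series, while the 2 h libraries spread over an 8.72-fold range and overlapped the 0 h ones. The group means were 25.07 ± 10.88, 15.62 ± 7.344 and 67.17 ± 32.99 FPKM in Micro-TOM and 86.13 ± 22.38, 46.14 ± 43.19 and 581.1 ± 230.1 FPKM in Micro-TOM-EX (SD, n = 3, as for all group levels below). From 0 h to 8 h the difference in mean log2(FPKM + 1) was 1.38 in Micro-TOM and 2.68 in Micro-TOM-EX, or 1.48 and 2.89 without the number 2 libraries of 0 h. In the order of means, Micro-TOM-EX at 8 h did not overlap the next group, and every neighbouring pair below it overlapped.

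CHI3 was low at 0 h and among the most abundant leaf transcripts at 8 h in both materials. Its Micro-TOM libraries held 6.98, 14.92 and 10.78 FPKM at 0 h, 496.6, 1012.77 and 538.91 at 2 h, and 5834.76, 8453.5 and 8364.23 at 8 h. No hour overlapped another, and the mean went from 10.89 ± 3.971 to 682.8 ± 286.6 and 7551 ± 1487 FPKM. The Micro-TOM-EX libraries held 24.26, 668.01 and 22.68 FPKM at 0 h, 638.45, 473.81 and 534.32 at 2 h, and 10180.26, 6840.02 and 11637.15 at 8 h. The 0 h library of 668.01 FPKM lay above all 2 h libraries of that material, so these hours overlapped, and the 8 h libraries lay apart from both. The 8 h mean of Micro-TOM was 693 times that of 0 h. In Micro-TOM-EX the same ratio was 40.1 with all libraries and 407 without the second 0 h library. CHI3 ranked 3rd of 23808 genes by mean FPKM at 8 h in each material and made up 0.794 to 1.16% of all FPKM in the Micro-TOM libraries and 0.892 to 1.53% in the Micro-TOM-EX ones.

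DEFL1 was at like levels at all hours in Micro-TOM and highest in Micro-TOM-EX at 8 h. Its Micro-TOM libraries held 14.36, 50.86 and 27.13 FPKM at 0 h, 21.2, 35.33 and 34.63 at 2 h, and 44.18, 30.89 and 40.26 at 8 h. All 3 hours overlapped, with means of 30.78 ± 18.52, 30.39 ± 7.964 and 38.44 ± 6.829 FPKM. Without the second 0 h library the 8 h values no longer overlapped those of 0 h, at a log2 difference of 0.91 in place of 0.47. The Micro-TOM-EX libraries held 21.33, 190.19 and 53.53 FPKM at 0 h, 104.83, 45.3 and 55.6 at 2 h, and 465.81, 343.86 and 374.48 at 8 h. The early hours overlapped, and the 8 h libraries lay above every other library of the series, with a mean of 394.7 ± 63.44 FPKM. That mean was 4.47 times the 0 h mean of 88.35 ± 89.65 FPKM, or 10.5 times without the second 0 h library.

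Xegip was low before salt and reached its highest levels at 8 h in both materials. Its Micro-TOM libraries held 0.74, 1.98 and 0.84 FPKM at 0 h, 175.49, 180.49 and 207.33 at 2 h, and 971.34, 1474.78 and 1865.26 at 8 h. Its Micro-TOM-EX libraries held 0.96, 42.81 and 1.34 FPKM at 0 h, 194.32, 330.04 and 259.05 at 2 h, and 1568.71, 1423.32 and 1589.88 at 8 h. In each material the 3 hours lay apart with no overlap, the second 0 h library of Micro-TOM-EX included. The means were 1.187 ± 0.6889, 187.8 ± 17.12 and 1437 ± 448.1 FPKM in Micro-TOM and 15.04 ± 24.05, 261.1 ± 67.88 and 1527 ± 90.67 FPKM in Micro-TOM-EX. By mean FPKM, Xegip went from rank 16112 of 23808 genes at 0 h to rank 35 at 8 h in Micro-TOM, and from rank 7706 to rank 42 in Micro-TOM-EX.

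**Figure D2:**
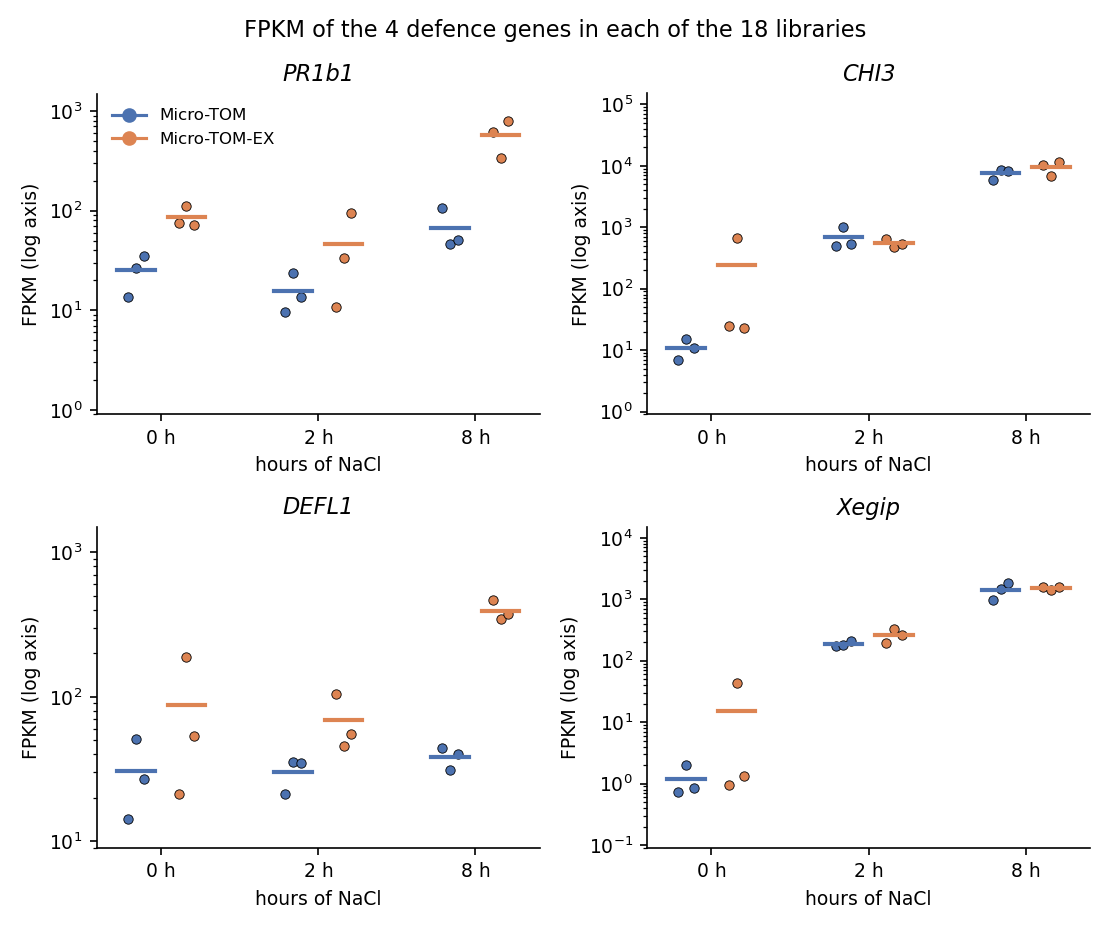
Level in FPKM (log axis) of each of the 4 genes in the 18 libraries by hour of NaCl, with Micro-TOM in blue and Micro-TOM-EX in orange; points are libraries and lines are group means (n = 3). CHI3 and Xegip are highest at 8 h in both materials, while PR1b1 and DEFL1 reach 338.13 to 795.59 and 343.86 to 465.81 FPKM in Micro-TOM-EX at 8 h, above all their other libraries.

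Set out by hour, 2 genes, CHI3 and Xegip, were higher at 2 h than at 0 h in Micro-TOM without overlap of the libraries, as were 29% of all tested genes. In Micro-TOM-EX this held for Xegip alone, against 26.6% of all genes, and for CHI3 as well once the second 0 h library was left out. At 8 h it held for PR1b1, CHI3 and Xegip in Micro-TOM, against 38.5% of all genes, and for all 4 in Micro-TOM-EX, against 37%. These shares of all genes are printed for scale only, since the members were chosen on the same values. Scaling the libraries by median ratios moved the median log2 change of all genes at 2 h by 0.31 in Micro-TOM and 0.39 in Micro-TOM-EX, and all other medians by 0.05 or less. Under it the 2 h difference of PR1b1 went from -0.64 to -0.31 in Micro-TOM and from -1.34 to -0.91 in Micro-TOM-EX, and that of DEFL1 from 0.12 to 0.46 and from 0.08 to 0.51.

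Micro-TOM-EX was also compared with Micro-TOM at the same hour. At 8 h PR1b1 was 8.65 times and DEFL1 10.3 times as high in Micro-TOM-EX by group means, a difference in mean log2(FPKM + 1) of 3.11 and 3.33, and neither gene's groups overlapped. Of all tested genes, 8.27% were higher in Micro-TOM-EX at 8 h without overlap. CHI3 and Xegip overlapped between the materials at 8 h, with log2 differences of 0.32 and 0.14, and also at 2 h, with -0.25 and 0.44. At 2 h DEFL1 was higher in Micro-TOM-EX without overlap (1.09), as were 15.8% of all genes, and PR1b1 overlapped (1.12).

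Before salt, PR1b1 was higher in every Micro-TOM-EX library than in any Micro-TOM library, at a log2 difference of 1.81. CHI3 also did not overlap, with 22.68 FPKM as the lowest Micro-TOM-EX library and 14.92 as the highest Micro-TOM one. Of all tested genes, 11.5% were higher in Micro-TOM-EX at 0 h without overlap. The log2 difference of CHI3 was 2.69 with all libraries and 1.10 without the second Micro-TOM-EX one. For Xegip it went from 1.47 to 0.01 and for DEFL1 from 1.13 to 0.31 when that library was left out, and both genes overlapped between the materials. Without the second library of Micro-TOM as well, Xegip no longer overlapped, with 0.96 and 1.34 FPKM in Micro-TOM-EX beside 0.74 and 0.84 in Micro-TOM and a log2 difference of 0.26.

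The responses of the materials are set side by side here, each measured against its own 0 h libraries. At 8 h the response of Micro-TOM-EX exceeded that of Micro-TOM by 1.30 for PR1b1 and 2.20 for DEFL1 on the log2 scale, or 1.41 and 2.58 without the number 2 libraries of 0 h. For CHI3 the difference between the responses at 8 h was -2.36, or -1.01 without those libraries. For Xegip it was -1.33, or -0.12 without them. At 2 h it was -0.69 for PR1b1, -2.94 for CHI3, -0.04 for DEFL1 and -1.02 for Xegip, and -0.59, -1.58, 0.34 and 0.19 without those libraries. The difference at 2 h thus took the other sign for DEFL1 and Xegip when a pair of libraries was left out. Both responses of a material share its 0 h libraries.

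Over the 18 libraries, CHI3 and Xegip followed each other most closely, with Pearson's r = 0.974 on the log2(FPKM + 1) scale, and PR1b1 and DEFL1 next, with r = 0.789. The remaining pairs had r of 0.392 to 0.570. All libraries share the hour of salt as a source of variation, so these values only describe the pattern. Among 14934 genes that reached a mean of 5 FPKM in a group, Xegip was 14th in likeness to CHI3 and CHI3 55th in likeness to Xegip. PR1b1 was 19th in likeness to DEFL1 and DEFL1 146th in likeness to PR1b1. The ratio of CHI3 to Xegip was 4.48 to 6.01 in the Micro-TOM libraries and 4.81 to 7.32 in the Micro-TOM-EX libraries of 8 h. At 2 h it was 2.6 to 5.61, overlapping 8 h, and 1.44 to 3.29, and at 0 h it was 7.54 to 12.8 and 15.6 to 25.3. The ratio of PR1b1 to DEFL1 was 0.527 to 1.29, 0.393 to 0.673 and 1.25 to 2.38 over the hours in Micro-TOM. In Micro-TOM-EX it was 0.588 to 3.52, 0.103 to 1.7 and 0.983 to 2.12. Neither ratio was constant over the hours.

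The genes most like CHI3 and Xegip in pattern included proteins known from drying seeds and water-stressed tissue. CHI3 was followed most closely by the desiccation-related protein LOC101248072 (r = 0.991 over 18 libraries), by LE25 (r = 0.991), a late embryogenesis abundant protein, by LOC101250492, of no described function, by ca3 (r = 0.984), and by CHI1 (r = 0.980), a chalcone isomerase of flavonoid synthesis. Xegip was followed by the aldo-keto reductase LOC101250974 (r = 0.996), by LE25 (r = 0.992), by the amino acid transporter LOC101267241, by TAS14 (r = 0.990), a dehydrin, and by LOC101260128, of no described function. LE25 had group means of 0.22, 101 and 1330 FPKM in Micro-TOM and 19.5, 130 and 1796 in Micro-TOM-EX over the 3 hours. Without the number 2 libraries of 0 h (16 libraries) the r of LE25 was 0.991 with CHI3 and 0.993 with Xegip.

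The genes most like PR1b1 and DEFL1 were of mixed kinds and lower r. PR1b1 was most like P4 (r = 0.922), another PR-1 protein. The next were LOC101255337, a vesicle transport protein, LOC101248812 (r = 0.888), a kinesin-like protein, LOC101247715, a vacuolar sorting protein, and LOC101255071, a peptidyl-prolyl isomerase. DEFL1 was most like LOC101255806 (r = 0.896), a purple acid phosphatase described as probably inactive, followed by LOC101266335, LOC101245978, LOC101248812 (r = 0.858) and LOC101255231. LOC101248812 was thus named for both genes, with group means of 0.163, 0.23 and 0.603 FPKM in Micro-TOM and 1.51, 1.53 and 5.77 in Micro-TOM-EX. The flavonoid 3'-monooxygenase-like gene LOC101245978 stayed at 0.34 FPKM or below in every Micro-TOM library and reached 7.4, 10.61 and 14.06 FPKM in Micro-TOM-EX at 8 h.

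All 4 genes have a relative of the same family beside them. CHI17, the acidic 27 kDa endochitinase, starts 2298 bases past CHI3. It had group means of 15.9, 477 and 2685 FPKM in Micro-TOM and 40.2, 224 and 1563 in Micro-TOM-EX, and r = 0.970 with CHI3. The ratio of CHI3 to CHI17 in the libraries of 8 h was 2.59 to 3.1 in Micro-TOM and 5.11 to 8.21 in Micro-TOM-EX, with no overlap. The other 3 neighbours of CHI3 in the deposited table were low, at group means of up to 5.57 FPKM, among them LOC101252453, an acyl-activating enzyme. In the order of SLM_r2.1 the second gene before CHI3 is LOC101253341, a strictosidine synthase-like protein, with group means of 18.9, 21.2 and 187 FPKM in Micro-TOM and 22.2, 30.6 and 201 in Micro-TOM-EX.

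P4 follows PR1b1 in the order of SLM_r2.1. Its libraries held 0.98, 0.65 and 0.86 FPKM at 0 h and 1.71, 1.23 and 0.75 at 8 h in Micro-TOM. In Micro-TOM-EX they held 1.83, 5.59 and 2.18 FPKM at 0 h and 6.98, 6.22 and 11.4 at 8 h. The material with more PR1b1 at 8 h thus also had more P4 there, at a far lower level, with PR1b1 at 37.4 to 67.2 times P4 in Micro-TOM and 54.4 to 87.4 times in Micro-TOM-EX. Reads may have been shared between PR1b1 and P4 and between CHI3 and CHI17, but how alike their sequences are was not examined. How the authors' counting divided any such reads is not given in the sources used here.

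DEFL1 lies 3039 bases from TGAS118, a gamma-thionin of the same broad family. TGAS118 had group means of 7.64, 4.38 and 1.85 FPKM in Micro-TOM and 1.21, 0.38 and 0.433 in Micro-TOM-EX (r = -0.492 with DEFL1 over the 18 libraries). In the 0 h groups both genes were highest in library 2, with TGAS118 at 10.24 FPKM in Micro-TOM and 2.41 in Micro-TOM-EX. The defensin-like gene LOC101263528, 14173 bases away, was at or near 0 in all libraries. Another relative, LOC101262930, 31159 bases away, was also close to 0 before 8 h and then reached 1.84, 2.14 and 2 FPKM in Micro-TOM and 5.41, 9.38 and 1.49 in Micro-TOM-EX. On the other side lie LOC101264441, a receptor-like kinase, and sps, a sucrose-phosphate synthase, with group means of 17.9 to 48.4 FPKM.

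Xegip lies in a cluster of basic 7S globulin-like genes, the family to which the glucanase inhibitors belong, with 9 of them within 500 kb. Its next neighbour LOC101255625, 6060 bases away, had group means of 32.3, 19.6 and 210 FPKM in Micro-TOM and 24.6, 18.9 and 207 in Micro-TOM-EX. Unlike Xegip, it stood no higher at 2 h than at 0 h. LOC101254128, 32210 bases away, was lower at 8 h, with 81.5, 77.2 and 11.9 FPKM in Micro-TOM and 31.9, 55.4 and 16.5 in Micro-TOM-EX. LOC101253826 had 82.7, 90.4 and 251 FPKM in Micro-TOM and 40.9, 84.2 and 211 in Micro-TOM-EX. LOC101253527 reached 4.51 and 5.32 FPKM at 8 h from 0.0267 and 0.04 at 0 h, and the remaining 5, LOC101246563 among them, had no group mean above 0.62 FPKM. Past the cluster's edge, the 2-alkenal reductase-like gene LOC101255918 went from 0.653 to 121 FPKM between 2 h and 8 h in Micro-TOM.

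**Figure D3:**
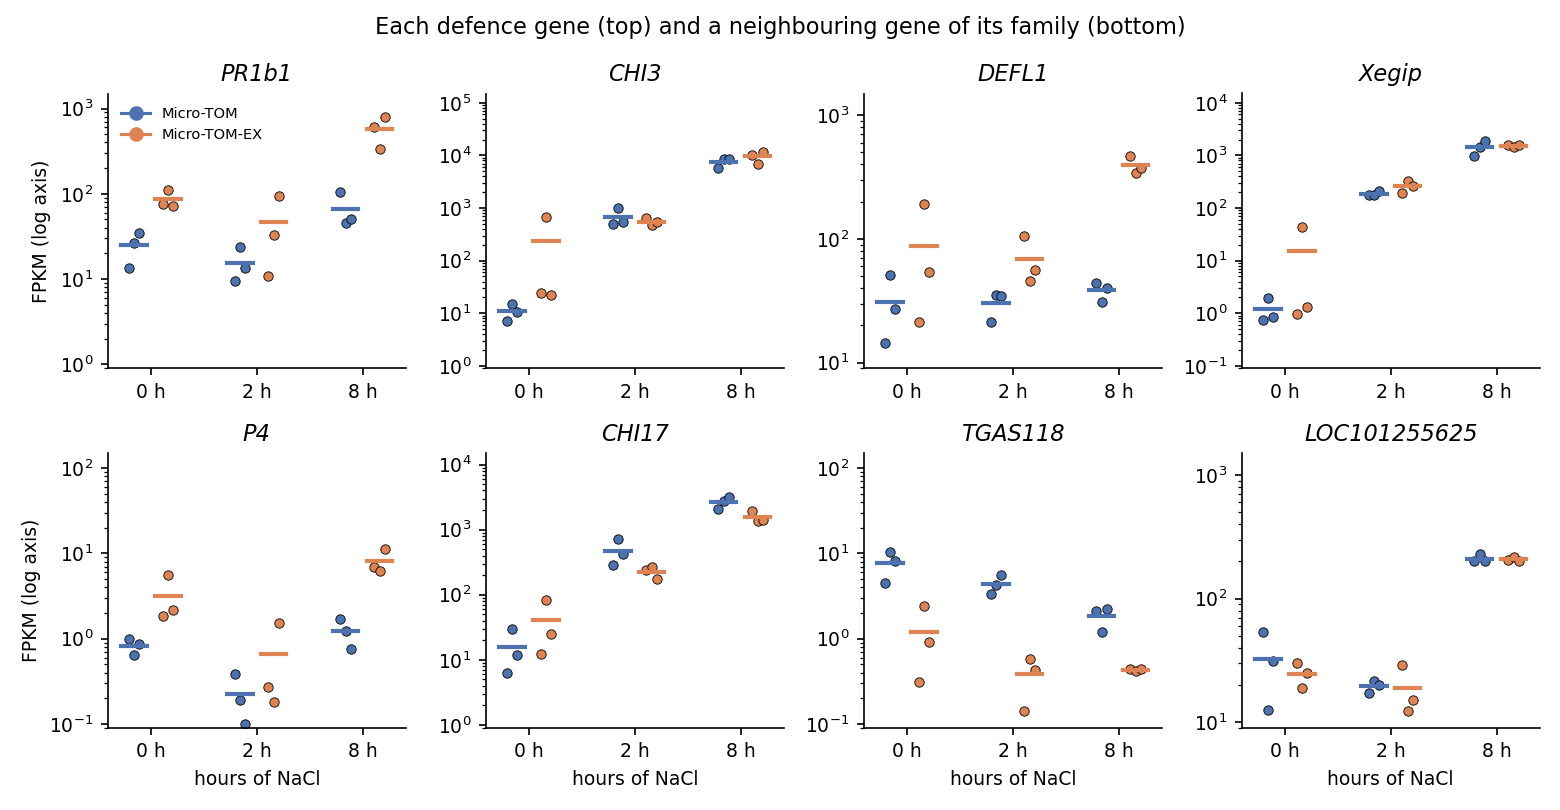
Level in FPKM (log axes) by hour of NaCl of each of the 4 genes (top) and of a neighbouring gene of its family (bottom), with Micro-TOM in blue and Micro-TOM-EX in orange; points are libraries and lines are group means (n = 3). CHI17 rises with CHI3 in both materials, P4 is highest in Micro-TOM-EX at 8 h as PR1b1 is, TGAS118 has its highest group mean in Micro-TOM at 0 h (7.64 FPKM), and LOC101255625 its highest at 8 h in both materials (210 and 207 FPKM).

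The other genes of these families were tested to place the 4 genes among their kind. A linear model was fitted with limma to log2(FPKM + 1) of all 18402 genes with 1 FPKM or more in at least 3 libraries, and a gene passed at a p adjusted by Benjamini and Hochberg over all of them below 0.05. Changes are on that scale, which understates those of low genes, and are given ± SE. The 4 genes aside, 7 families held 145 genes, and 93 of them passed the filter on low values. At 8 h against 0 h, 40 were higher and 27 lower in Micro-TOM, which is 72% of the 93 beside 70.6% of all genes. In Micro-TOM-EX 40 were higher and 28 lower, 73.1% beside 71.3%. The share of defence genes that changed was therefore close to that of all genes in both materials. The median log2 change was 0.51 and 0.28 in the families and 0.04 and -0.00 over all genes.

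More of the chitinases, which cut chitin, were higher than lower at 8 h. Of 19, 10 were higher and 3 lower in Micro-TOM, 68.4% beside 70.6% of all genes. In Micro-TOM-EX 11 were higher and 3 lower, 73.7% beside 71.3%. Of all 18402 genes, 6816 were higher in Micro-TOM and 6527 in Micro-TOM-EX. CHI17 rose by a log2 change of 7.54 ± 0.56 (SE) in Micro-TOM (adjusted p = 7.8e-09) and 5.65 ± 0.56 in Micro-TOM-EX (adjusted p = 2.2e-07). CHI14, a basic endochitinase, rose from 0.907 ± 0.112 to 50.4 ± 3.63 FPKM in Micro-TOM (adjusted p = 1e-09) and from 2.15 ± 1.13 to 64.2 ± 34.6 in Micro-TOM-EX (adjusted p = 3.4e-09). Endochitinase 4 (LOC101267358) rose from 198 ± 12.6 to 2412 ± 270 FPKM in Micro-TOM and from 199 ± 25.8 to 2819 ± 1605 in Micro-TOM-EX. The chitinase-like protein LOC101254426 fell, from 290 ± 30.8 to 153 ± 47 and from 296 ± 38.4 to 129 ± 25.3 FPKM. CHI3 reached a level at 8 h above each of these.

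Of the 6 PR-1 proteins tested beside PR1b1, 1 was higher and 1 lower at 8 h in Micro-TOM, 33.3% beside 70.6% of all genes. In Micro-TOM-EX 1 was higher and 3 were lower, 66.7% beside 71.3%. P4 was the one that rose in Micro-TOM-EX, by 1.20 ± 0.32 (adjusted p = 0.0035), and in Micro-TOM its change of 0.27 ± 0.32 did not pass. LOC101265854, called leaf protein 4-like, rose in Micro-TOM by 2.77 ± 0.91 (adjusted p = 0.013), but it did not pass without the first library of 0 h (2.41) or of 8 h (2.27). LOC101267821 fell from 12.8 ± 2.4 to 0.157 ± 0.0751 FPKM in Micro-TOM and from 14.7 ± 1.78 to 0.127 ± 0.0808 in Micro-TOM-EX. LOC100191111, the most abundant of the 6, had 88.4 ± 29.4 and 145 ± 32.1 FPKM in Micro-TOM and 109 ± 33.6 and 276 ± 281 in Micro-TOM-EX, and neither change passed.

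More of the defensins and snakins beside DEFL1 were lower than higher at 8 h. Of 6, 1 was higher and 4 were lower in Micro-TOM, 83.3% beside 70.6% of all genes. In Micro-TOM-EX 1 was higher and 3 were lower, 66.7% beside 71.3%. Of all 18402 genes, 6174 were lower in Micro-TOM and 6588 in Micro-TOM-EX. DEFL1 was higher at 8 h in Micro-TOM-EX, while its hours overlapped in Micro-TOM. SN2, the antimicrobial peptide snakin-2, fell from 2152 ± 721 to 186 ± 30.2 FPKM in Micro-TOM (adjusted p = 1.2e-06) and from 1795 ± 68.4 to 473 ± 221 in Micro-TOM-EX (adjusted p = 0.00028). LOC101262930, the relative near DEFL1, was the 1 that rose in each material. Its change was 1.51 ± 0.33 in Micro-TOM (adjusted p = 0.00066) and 2.39 ± 0.33 in Micro-TOM-EX (adjusted p = 7.5e-06). It was at 0.16 FPKM or below in every library before 8 h. LOC101262930 thus passed the filter on low values only through its 8 h libraries, and these p-values are no separate support for a rise. TGAS118 fell in Micro-TOM by 1.56 ± 0.31 (adjusted p = 0.00029), with a change of -0.51 ± 0.31 in Micro-TOM-EX that did not pass.

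Among the 8 basic 7S globulin-like genes tested beside Xegip, 6 were higher and 1 was lower at 8 h in each material. This is 87.5%, beside 70.6% of all genes in Micro-TOM and 71.3% in Micro-TOM-EX. Before 8 h, LOC101253527 reached 1 FPKM only in the first Micro-TOM-EX library of 2 h (1.31). LOC101253527 thus passed the filter on low values only through its 8 h libraries, and its calls are no separate support for a rise. LOC101255625 rose by 2.88 ± 0.37 in Micro-TOM (adjusted p = 4e-06) and 3.05 ± 0.37 in Micro-TOM-EX (adjusted p = 2e-06). LOC101253124 rose from 3.4 ± 0.601 to 42.2 ± 9.82 FPKM in Micro-TOM and from 3.31 ± 0.616 to 43.4 ± 19 in Micro-TOM-EX. The one that fell was LOC101254128, by 2.65 ± 0.27 in Micro-TOM and 0.97 ± 0.27 in Micro-TOM-EX. None of the 8 reached the level of Xegip at 8 h.

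The 3 families without a member among the 4 genes were mixed. Of 6 PR-10 proteins, a class of intracellular PR proteins, 4 were higher and 0 lower at 8 h in Micro-TOM. All 6 were higher in Micro-TOM-EX. These shares were 66.7% and 100%, beside 70.6% and 71.3% of all genes. LOC101246381, named STH-2-like, rose from 15.6 ± 2.53 to 1355 ± 535 FPKM in Micro-TOM and from 40.4 ± 38.5 to 1301 ± 322 in Micro-TOM-EX. Thaumatin-like proteins split into 6 higher and 6 lower of 16 in Micro-TOM (75%) and 5 and 6 in Micro-TOM-EX (68.8%). NP24, a salt-induced osmotin, rose by 4.30 ± 0.51 (adjusted p = 1.5e-06) and 2.75 ± 0.51 (adjusted p = 0.00016). Beta-1,3-glucanases cut a glucan of fungal and plant walls. Of 32, 12 were higher and 12 lower in Micro-TOM (75%) and 10 and 12 in Micro-TOM-EX (68.8%). LOC101265618 among them was up by 5.38 ± 0.34 and 5.06 ± 0.34.

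**Figure D4:**
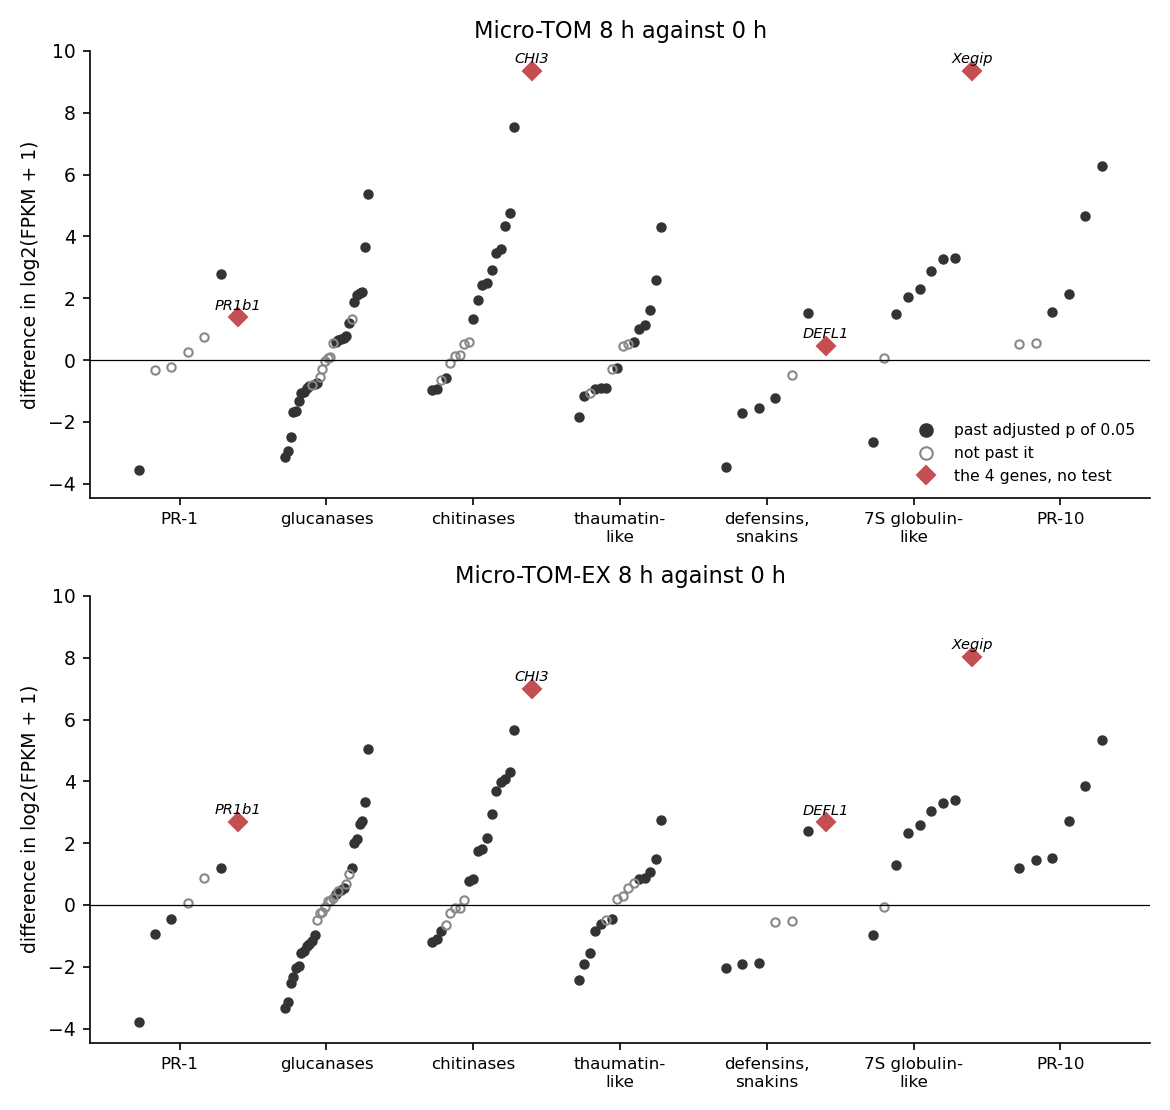
Difference in mean log2(FPKM + 1) between 8 h and 0 h for the 93 tested genes of 7 defence families (circles, filled where the adjusted p passed 0.05) and for the 4 genes (diamonds, no test), with Micro-TOM above and Micro-TOM-EX below. On this scale CHI3 and Xegip stand above all other genes of their families in both materials, while PR1b1 and DEFL1 do so in Micro-TOM-EX alone. The 4 genes were chosen with these values known. In Micro-TOM-EX, DEFL1 (2.67) lies close to LOC101262930 (2.39), which went from 0.05 to 5.43 FPKM, and the scale understates changes of such low genes.

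At 2 h against 0 h, 26 of the 93 family genes were higher and 28 lower in Micro-TOM, 58.1% beside 74.9% of all genes. In Micro-TOM-EX 27 were higher and 30 lower, 61.3% beside 75.9%. With median-ratio scaling the split was 30 and 20 in Micro-TOM and 35 and 24 in Micro-TOM-EX, so which direction held more genes depended on the scaling. CHI17 rose at 2 h, by 4.97 ± 0.56 in Micro-TOM (adjusted p = 8.3e-07) and 2.85 ± 0.56 in Micro-TOM-EX (adjusted p = 0.00025). EP3 (LOC101256086), another endochitinase, rose from 5.8 ± 0.505 to 187 ± 16 FPKM and from 2.57 ± 0.456 to 122 ± 28.4. LOC101255625, the neighbour of Xegip, did not pass in either material (-0.48 ± 0.37 and -0.43 ± 0.37). Of the 8 basic 7S globulin-like genes, 4 were higher at 2 h in Micro-TOM (50%) and 7 in Micro-TOM-EX (87.5%), with 0 lower in both. These were the same counts as under median-ratio scaling. LOC101262842 had no group mean above 0.0833 FPKM at 0 h or 8 h. It thus passed the filter on low values only through its 2 h libraries, and its calls are no separate support for a rise.

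Between the materials, few family genes differed. At 0 h 0 of 93 were higher and 5 lower in Micro-TOM-EX, 5.38% beside 4.01% of all genes. At 2 h 7 were higher and 8 lower, 16.1% beside 13.7%. At 8 h 3 were higher and 0 lower, 3.23% beside 1.67%. The 3 were P4 among the PR-1 proteins (2.03 ± 0.32, adjusted p = 0.002), the thaumatin-like protein LOC104645134 (2.15 ± 0.32, adjusted p = 0.0011) and the glucanase Q`a (1.36 ± 0.19, adjusted p = 0.00062). P4 had 1.23 ± 0.48 FPKM in Micro-TOM and 8.2 ± 2.8 in Micro-TOM-EX, LOC104645134 2.75 ± 1.33 and 16 ± 8.04, and Q`a 3.87 ± 0.572 and 11.7 ± 3.09. In Micro-TOM, P4 reached 1 FPKM only in the 8 h libraries of 1.71 and 1.23 FPKM. P4 thus passed the filter on low values only through Micro-TOM-EX, and its p-value here is no separate support for a difference. By limma, 0 of 19 chitinases passed at 8 h (3 at an unadjusted p below 0.05, 2 by the authors' deposited q values) and 0 of 8 basic 7S globulin-like genes (1 and 0). CHI17 had a difference of -0.78 ± 0.56 (adjusted p = 0.62). The count at 0 h was 3 without Micro-TOM library 2 or 3 or Micro-TOM-EX library 3 of 0 h, and that at 2 h was 8 without the first Micro-TOM library of 2 h.

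TGAS118 was lower in Micro-TOM-EX at 0 h, by 2.02 ± 0.31 (adjusted p = 0.0012), and at 2 h, by 1.95 ± 0.31 (adjusted p = 0.00058). Its neighbour DEFL1 overlapped between the materials at 0 h and was higher in Micro-TOM-EX without overlap at 2 h. At 8 h the TGAS118 difference of -0.97 ± 0.31 did not pass (adjusted p = 0.17). LOC101262930 and SN2 had means of 1.99 and 186 FPKM in Micro-TOM at 8 h and 5.43 and 473 in Micro-TOM-EX. By limma 0 of 6 defensins and snakins passed there (3 at an unadjusted p below 0.05, 1 by the authors' deposited q values), beside 1.67% of all genes.

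**Figure D5:**
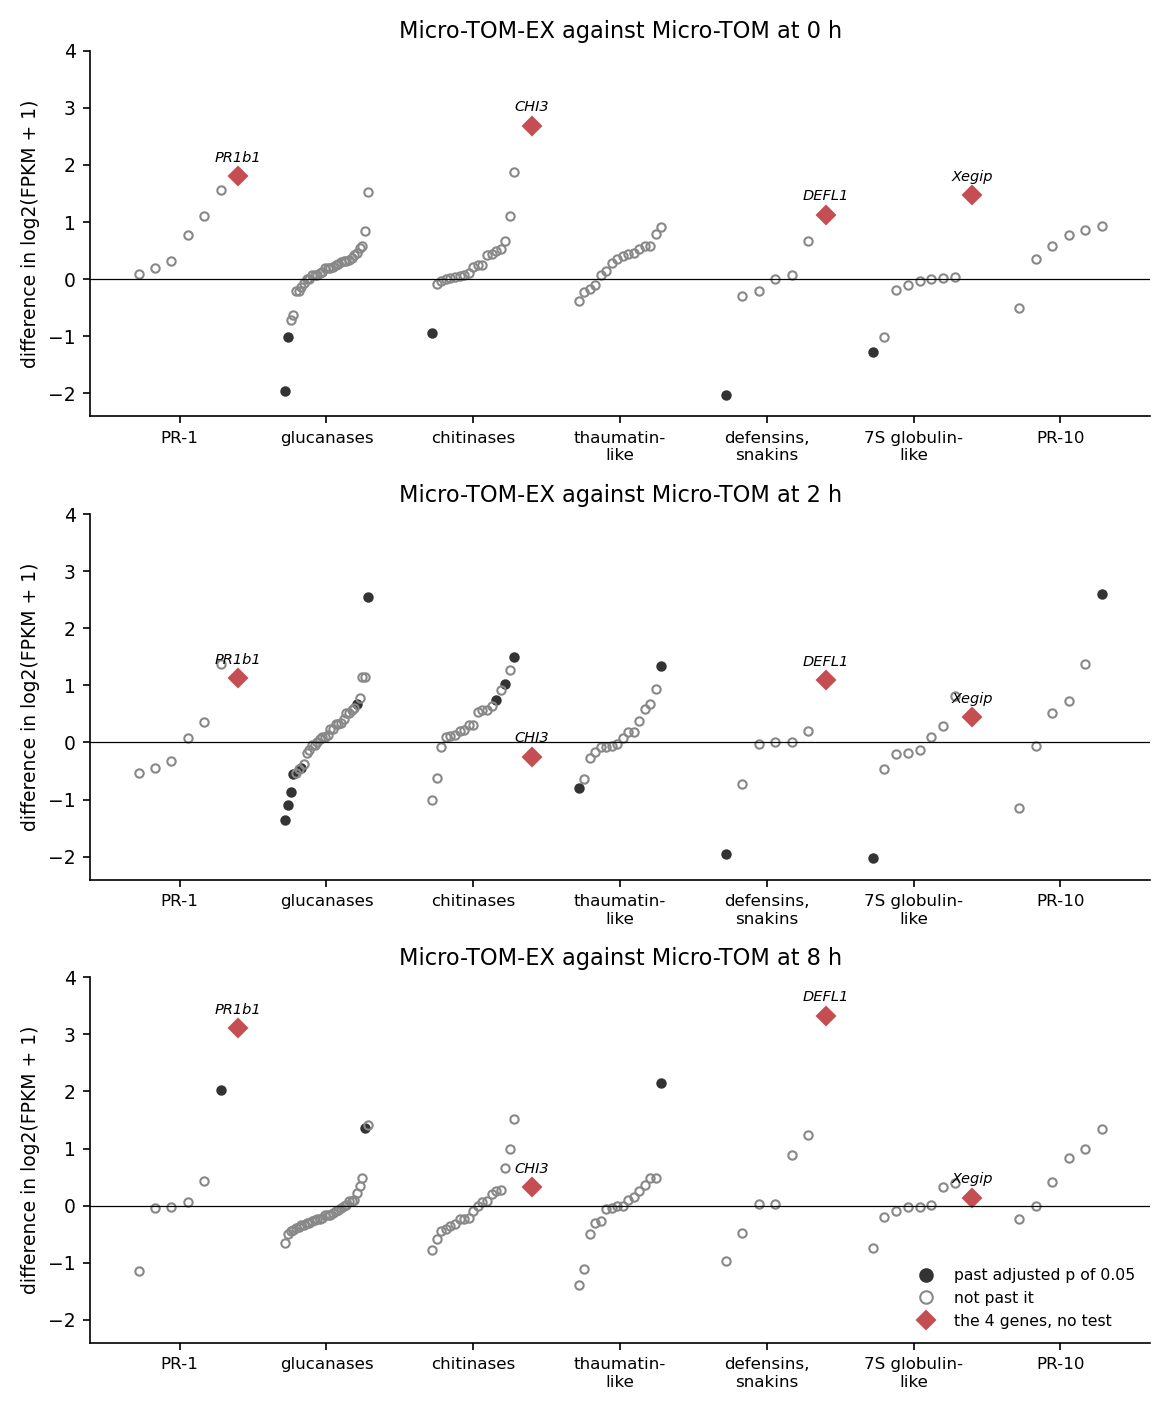
Difference in mean log2(FPKM + 1) between Micro-TOM-EX and Micro-TOM at 0 h, 2 h and 8 h for the 93 tested genes of 7 defence families (circles, filled where the adjusted p passed 0.05) and for the 4 genes (diamonds, no test; all libraries). At 8 h PR1b1 and DEFL1 lie at 3.11 and 3.33, above all 93 genes, and CHI3 and Xegip at 0.32 and 0.14, among them.

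The difference between the responses of the materials was tested for the same 93 family genes. At 2 h it passed for 9 of 93, 9.68% beside 6.49% of all genes, and at 8 h for 4, 4.3% beside 1.35%. None of the 4 was a PR-1 protein, a chitinase or a defensin, which says little at a share of 1.35% of all genes. LOC104645134, a thaumatin-like protein, fell at 8 h in Micro-TOM (-0.89 ± 0.32, adjusted p = 0.021) and rose in Micro-TOM-EX (1.49 ± 0.32, adjusted p = 0.00058). Without 1 library at a time the counts ranged from 2 to 7 and from 1 to 4, and with the replicate number as a block they were 10 and 2.

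PR-1 genes are classical targets of salicylate signalling, so 21 genes for its regulators were examined in the same fit. At 2 h 13 were higher and 3 lower than at 0 h in each material, 76.2% beside the 74.9% and 75.9% of all genes given above. At 8 h 6 were higher and 11 lower in Micro-TOM, 81% beside 70.6% of all genes. In Micro-TOM-EX 6 were higher and 8 lower, 66.7% beside 71.3%. LOC101257689, like the salicylate receptor NPR4 of Arabidopsis, rose from 2.26 ± 0.966 to 32.2 ± 4.01 FPKM at 2 h and stood at 16.7 ± 3.27 at 8 h in Micro-TOM, and from 1.9 ± 0.173 to 48.5 ± 13.5 and 21.3 ± 0.675 in Micro-TOM-EX. LOC101257028, like the lipase-like regulator PAD4, had 6.72 ± 2.87, 21.8 ± 0.687 and 15.6 ± 0.707 FPKM in Micro-TOM and 6.16 ± 0.197, 38.2 ± 3.29 and 17.4 ± 4.39 in Micro-TOM-EX. LOC101255079, like calmodulin-binding protein 60 B, fell at 8 h, from 27.5 ± 12.9 to 2.76 ± 0.657 FPKM in Micro-TOM (adjusted p = 3.4e-08) and from 18.6 ± 1.66 to 3.51 ± 0.535 in Micro-TOM-EX (adjusted p = 9.6e-07). Isochorismate synthase (LOC778225), which makes a precursor of salicylate and was singled out after its values were seen, fell at both hours. It went from 6.94 ± 2.42 FPKM to 0.767 ± 0.291 and 1.08 ± 0.154 in Micro-TOM and from 10.2 ± 2.3 to 1.57 ± 0.621 and 1.3 ± 0.121 in Micro-TOM-EX.

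Between the materials 1 of the 21 regulators was lower in Micro-TOM-EX at 0 h, LOC101255950, like calmodulin-binding protein 60 B (-1.23 ± 0.24, adjusted p = 0.0062), a gene singled out after its values were seen. At 2 h 1 was higher, LOC101257028 (0.78 ± 0.19, adjusted p = 0.015), which did not pass without the first Micro-TOM library of 2 h (0.78) or the third Micro-TOM-EX one (0.71). At 8 h 0 of 21 passed by limma in either direction (1 at an unadjusted p below 0.05, 0 by the authors' deposited q values). Of all genes 1.67% passed there, so a count of 0 among 21 says little about the regulators. Their relation to PR1b1 was not tested. LOC101257689 had a difference of 0.35 ± 0.21 at 8 h (adjusted p = 0.54). NML2, a NIM1-like (NPR1-like) protein, had 75.4 ± 6.04 FPKM in Micro-TOM and 81.5 ± 9.88 in Micro-TOM-EX at 8 h.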

How the data were processed

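Leaf RNA was sequenced on the BGI500 platform, and the authors' deposited table gives FPKM per gene and library, with log2 fold changes and q-values of their own comparisons, as the authors deposited them. The authors named DESeq2 1.4.5, RSEM 1.2.12, HISAT2 2.0.4 and Bowtie2 2.2.5, per the submitters' processing notes. Their roles, the strand of counting and the treatment of reads shared by near-identical genes are not given there. Another 18 FPKM columns repeat the first 18 and were not used. Counts were planned for, but the values are FPKM, so limma 3.58.1 in R 4.3.3 was fitted to log2(FPKM + 1) of 6 groups with a mean-variance trend, for 9 comparisons, and tested on simulated data.

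PR1b1, CHI3, DEFL1 and Xegip and all gene lists were chosen with earlier results of these data known. The members therefore have no test. Genes named are the members, the 5 most correlated with each, the nearest neighbours, up to 3 genes of highest level and 2 of smallest adjusted p per family and comparison, and 6 salicylate regulators. LOC101265854 and LOC101255950, and others that make up a count of 5 or fewer, were named after their values were seen. Symbols were matched in SLM_r2.1 for 21978 IDs; no sequence was used here.

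Depth was estimated as 18.51 to 19.97 M fragments from the spacing of low FPKM values, with 85.1 to 90.3% of values whole within 0.15, so it is approximate. Counting error was at most 23.6% for a value of Xegip and 9.80% for the other 3. Deviations of same-numbered libraries from their group means correlated between the materials at 0.13 to 0.48 at 0 h and at -0.38 to 0.16 at 2 h and 8 h. These ranges overlap, and differently numbered libraries were not compared. The labels give no shared plant or day, so whether the numbers pair the libraries is not known. Alternatives were median-ratio scaling, other filters, a pseudocount of 0.1, only the groups compared, a replicate block, each library left out and a 2-fold minimum; the authors' deposited values and leaving out both number 2 libraries of 0 h were added after seeing the data.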

Additional observations from a re-analysis of the deposited data

Results flagged for a closer look

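The responses of Micro-TOM and Micro-TOM-EX to 2 h of salt differed, by limma's test of the difference itself, for 9 defence-family genes. The response of Micro-TOM-EX minus that of Micro-TOM on the log2 scale was 1.53 for the glucanase LOC101246571 (adjusted p = 0.0013), -1.18 for LOC101260664 (adjusted p = 0.032), 0.73 for LOC101251382 (adjusted p = 0.041) and 1.57 for LOC104645134 (adjusted p = 0.05). It was -2.02 for the basic 7S globulin-like gene LOC101262571 (adjusted p = 0.0016) and 2.24 for the PR-10 protein LOC101266638 (adjusted p = 0.016). The count of 9 was 2 without Micro-TOM library 1 of 2 h, 3 without Micro-TOM library 3 of 0 h, Micro-TOM-EX library 2 of 0 h or Micro-TOM-EX library 3 of 2 h, 4 without Micro-TOM library 3 of 2 h or Micro-TOM-EX library 3 of 0 h, and 5 without Micro-TOM-EX library 2 of 2 h.

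At 8 h the responses differed for 4 genes. The difference was 1.03 for LOC101246571 (adjusted p = 0.047), 1.14 for the glucanase Q`a (adjusted p = 0.05), 2.38 for the thaumatin-like protein LOC104645134 (adjusted p = 0.015) and 1.69 for LOC101254128, a neighbour of Xegip (adjusted p = 0.039). Q`a had means of 0.0667 FPKM in Micro-TOM and 0.27 in Micro-TOM-EX at 0 h, and 0.25 in Micro-TOM at 2 h. These lie below the 1 FPKM of the filter, so in Micro-TOM only its 8 h libraries reached it. The p-value of Q`a is thus no separate support. The count of 4 was 1 or 2 without any 1 library of those compared other than Micro-TOM library 1 of 0 h (4), Micro-TOM library 1 of 8 h (3) and Micro-TOM-EX library 3 of 8 h (3).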

How the results depend on the processing

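With 1 library left out, 4 small differences of the members, all between groups that overlap, took the other sign. CHI3 between the materials at 2 h went from -0.25 to 0.07 without Micro-TOM library 2 of 2 h, and Xegip at 8 h from 0.14 to -0.12 without Micro-TOM library 1 of 8 h. DEFL1 at 2 h against 0 h went from 0.12 to -0.32 in Micro-TOM without library 1 of 0 h, and in Micro-TOM-EX from 0.08 to -0.65 without library 1 of 0 h and -0.27 without library 1 of 2 h. With a pseudocount of 0.1 the Xegip difference in Micro-TOM was 7.31 at 2 h and 10.20 at 8 h. In the authors' deposited table it was 7.61 and 10.02, that of Xegip at 8 h in Micro-TOM-EX 5.80, and that of CHI3 there 4.64.

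Counts of family genes between the hours stayed within 1.5 times. Between the materials at 0 h (5 genes) the count was 0 with only the groups compared, 3 without both number 2 libraries of 0 h, 10 by the authors' deposited q values and 3 to 5 with 1 library left out. At 2 h (15) it was 23 with only the groups compared and 34 by the authors' values. With a 2-fold minimum it was 9, and with 1 library left out 8 to 15. At 8 h (3) it was 7 by the authors' values. These counts by the authors' values take in all family genes with a deposited q value. Among the 93 genes tested they were 9 at 0 h, 32 at 2 h and 7 at 8 h. For the difference in response at 2 h (9) the count by limma was 2 to 7 with 1 library left out. At 8 h (4) it was 2 with no filter, 1 with a pseudocount of 0.1, 1 with only the groups compared, 2 with the replicate block, 1 without both number 2 libraries and 1 to 4 with 1 library left out. The replicate block moved no other count by over 1.5 times, and gave 6 in place of 5 between the materials at 0 h. That hour held the highest correlation of same-numbered libraries.

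The change of LOC101259605 at 8 h in Micro-TOM, -0.04, was 0.75 without library 2 of 0 h and ranged from -0.73 to 0.75 with 1 library left out. That of LOC101254426 at 2 h in Micro-TOM-EX, -0.01, was 0.43 with median-ratio scaling and 0.46 in the authors' deposited table. The causes were not tested. Xegip at 0 h rests on few fragments, so its folds are the least precise.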
